A study of Mus musculus with 2 samples.

Results

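The genes described here are the ligands and receptors of the FGF, EGF and HGF growth factor families. They were taken by gene name from the array design: every Fgf gene with a number, the Fgfr genes, and a fixed set of EGF family ligands, ERBB receptors, HGF family genes and the coreceptor Klb. Of 30175 genes on the array, 43 belong to this set, on 159 of 43020 spots. Outlier spots were then left out, which kept 30153 genes, and the 43 members had 68 probes. They comprise 21 FGF ligands, 6 FGF receptors or coreceptors, 8 EGF family ligands, 4 ERBB receptors, 2 HGF family ligands and 2 HGF family receptors. The rule goes by gene name and uses no measured value, but it was set with earlier results of these data known.

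RNA of 2 samples was compared. The first was from mature hepatocytes (MH) of healthy liver, purified on a Percoll gradient, which removes dead cells but selects no surface protein. The other was from Sox9+EpCAM- cells sorted by FACS from Sox9-EGFP mice, in which Sox9 expression is read as green fluorescence, after feeding with DDC, a compound that injures the bile ducts. The study's methods name Sox9-EGFP mice for both the healthy and the injured livers, while the labels call both samples male. How long the mice were fed for the array, their age and how many mice stand behind each sample are not given in the sources used here. Diet, Sox9 sorting and purification method all differ between the samples and cannot be told apart.

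FGF, EGF and HGF family ligands bind receptor tyrosine kinases at the cell surface, which pass the signal on through adaptors to the RAS-ERK and PI3K-AKT branches. In liver, EGF receptor ligands and HGF are known as the main growth signals of hepatocytes, and HGF is made mostly by cells other than hepatocytes. FGF15 from the gut and FGF21 from the liver itself act as hormones, need the coreceptor β-Klotho (Klb), and take part in the control of bile acid synthesis and of the response to fasting.

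Each sample was hybridised to 1 Agilent array of 60-base probes, so that no value here carries a replicate, an SD between mice or a test, and precision is limited by having 1 array per group. A difference is the log2 intensity on the Sox9+EpCAM- array minus that on the MH array, after each array was set relative to its own 75th percentile, which was 741 for MH and 1110 for Sox9+EpCAM-. Values given as intensity are as deposited, before this scaling, so equal intensities on both arrays are a lower relative level on the Sox9+EpCAM- array. Repeat spots of a probe differed by a median SD of 0.08 (log2) within each array. Signals well above background came from 27523 of the 43020 spots for MH and from 32158 for Sox9+EpCAM-, and 0 spots were saturated. A probe well above background on 1 array only has a bound, set against its own signal or the lowest signal above background on the other array, whichever was higher. That lowest signal was 27.8 for MH and 18.4 for Sox9+EpCAM-.

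The labels did not match the arrays in sex. Xist, the RNA of the inactive X chromosome in females, had an intensity of 1940 in MHs and 16.1, not well above background, in Sox9+EpCAM- cells. The Y-linked genes Ddx3y, Kdm5d, Uty and Eif2s3y were not well above background in MHs and were above it in Sox9+EpCAM- cells. By these genes the arrays differ in sex, which cannot be told apart from the injury, and no comparison can leave out 1 of the arrays. The sorted gene Sox9 was above background in Sox9+EpCAM- cells only, with an intensity of 60.7 against 8.87. Epcam, the surface protein the sort selected against, was 3.73 (log2) higher in Sox9+EpCAM- cells, with intensities of 139 and 2770. All 7 hepatocyte markers were above background on both arrays, with a median difference of -1.02.

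The 6 members higher in Sox9+EpCAM- cells by 4-fold or more were the EGF family ligands Areg, Hbegf, Btc and Nrg1, the receptor Erbb2 and the hormone Fgf21. The 2 members at least 4-fold lower were the EGF family ligand Ereg and Hgf. Of the 43 members, both arrays measured 25 above background, 9 passed it in Sox9+EpCAM- cells alone, 1 in MHs alone and 8 in neither. Over all 30153 genes these counts were 19235, 3610, 572 and 6736, so more genes passed in Sox9+EpCAM- cells alone across the whole array as well. The 6 higher members are 17.1% of the 35 above background, beside 5.59% of all 23417 genes above background, and the 2 lower members are 5.71%, beside 5.57% of all genes. Among the 25 members measured on both arrays, 11 differences were positive and 14 negative, from -2.13 to 4.63. Over all genes measured on both arrays, 7715 were positive and 11520 negative. The median of the members was -0.12, which is the value of the brightest Fgfr1 probe, beside -0.19 over the 19235 genes measured on both arrays. That probe shares 20 bases with probes of other genes. Without the probes that do so, the median of the members was 0.03, beside -0.18 over all genes. Scaled to the brightest Gapdh probe, which shares 20 bases with a probe of another gene, the split among members is 6 higher and 1 lower. The median of the members then turns positive, at 0.15, and so does that of all genes, at 0.07. Under that scaling 7.05% of all genes are higher and 4.30% lower. Scaled to the mean of all Gapdh probes, the split is 5 higher and 2 lower, with a median of -0.25, beside -0.32 over all genes.

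**Figure D1:**
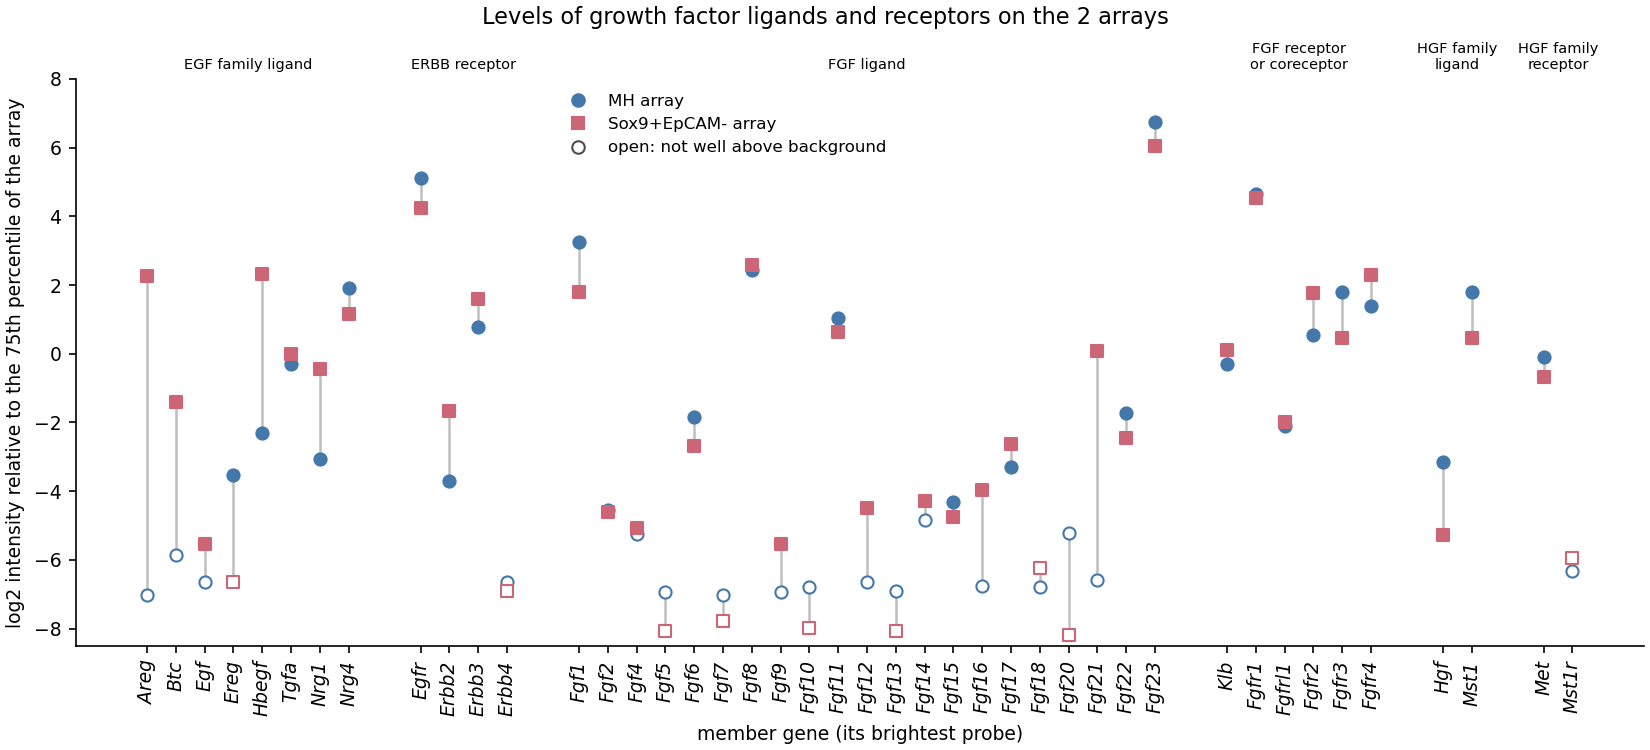
Level of each of the 43 member genes (log2 intensity of its brightest probe relative to the 75th percentile of the array) of MHs (circles) and of Sox9+EpCAM- cells (squares), with open symbols for signals not well above background. Areg, Fgf21, Hbegf and Btc have the longest gaps with the square above, and heights of different genes are not comparable since each probe has its own brightness.

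Promoters are shown for the pair of members with the largest bounds, Areg and Fgf21. For each, the 250 bases before the RefSeq start site on GRCm38.p6 are printed 5′ to 3′ on the strand of the gene, at chr5:91139349-91139598 (plus strand) for Areg and chr7:45615491-45615740 (minus strand) for Fgf21. Capitals mark a cAMP response element in Areg and, in Fgf21, the letters of an ATF4 element, which lie on the opposite strand.
Areg: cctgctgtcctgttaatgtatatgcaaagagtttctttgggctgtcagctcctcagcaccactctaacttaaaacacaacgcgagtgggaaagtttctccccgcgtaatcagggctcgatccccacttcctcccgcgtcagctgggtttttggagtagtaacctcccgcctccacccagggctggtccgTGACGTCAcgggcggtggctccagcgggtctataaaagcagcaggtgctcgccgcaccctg
Fgf21: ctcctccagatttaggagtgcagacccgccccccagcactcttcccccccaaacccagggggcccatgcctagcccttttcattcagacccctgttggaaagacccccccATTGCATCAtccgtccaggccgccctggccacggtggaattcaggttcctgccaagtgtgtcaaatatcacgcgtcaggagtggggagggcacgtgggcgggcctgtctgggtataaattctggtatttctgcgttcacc
The cAMP response element was searched as TGACGTCA, the AP-1 site as TGANTCA and the ATF4-CHOP element as TGATGNAA, with its full form as TGATGCAAT, on both strands. Over 32851 promoters of the same length, TGACGTCA was present in 1.55%, TGANTCA in 6.75%, TGATGNAA in 3.45% and TGATGCAAT in 0.167%, and every TGATGCAAT also contains TGATGNAA. Of the 32 member genes in the RefSeq table, with 42 promoters, only Areg held TGACGTCA, starting 61 bases before its start site. Only Fgf21 held TGATGCAAT, starting 140 bases before its start site. The AP-1 letters were found in Fgf12, Fgf13 and Met. These matches describe the letters and say nothing of binding.

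Among the ligands of the EGF receptor, Areg, Hbegf and Btc were higher in Sox9+EpCAM- cells. Areg, which encodes amphiregulin, had an intensity of 5.73, not well above background, in MHs and 5310 in Sox9+EpCAM- cells, a difference of at least 6.99, or at least 128-fold. Hbegf, which encodes the heparin-binding ligand of EGFR and ERBB4, had intensities of 151 and 5590, a difference of 4.63 or 24.7-fold. Btc (betacellulin), a ligand of the same receptors, had an intensity of 12.7, not well above background, in MHs and 423 in Sox9+EpCAM- cells, at least 10.2-fold higher. Of these 3 ligands, Hbegf was the only one measured above background on both arrays. The error that the scanner software gives for Hbegf came to 0.22 on the log2 difference, and it covers the spots only.

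Not all EGF family ligands followed. Ereg (epiregulin) had an intensity of 64.3 in MHs and 11.1, not well above background, in Sox9+EpCAM- cells, at least 5.23-fold lower. Tgfa, a membrane-anchored EGFR ligand, had mean intensities over 9 spots of 600 and 1114, a difference of 0.31. Egf itself was above background in Sox9+EpCAM- cells only, at a mean of 24.8 over 8 spots against 8.24, which is below the lowest signal measurable in MHs, so no fold can be given. The family therefore held ligands that were higher, lower and less than 4-fold apart.

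Areg, Btc and Ereg lie close together in the genome, with a further EGF family ligand, Epgn (epigen). On chromosome 5 (mm9) the Epgn probe is at chr5:91464119-91464178, that of Ereg at chr5:91522553-91522612, that of Areg at chr5:91570090-91570149 and that of Btc at chr5:91786948-91787007. The Ereg, Areg and Btc probes thus lie 58.4, 106 and 323 kb from that of Epgn. Epgn had intensities of 43.6 and 25, a difference of -1.39. The pair Ereg and Epgn was lower and the pair Areg and Btc higher in Sox9+EpCAM- cells. No annotation of mm9 was used here, so the exon or UTR in which a probe lies is not stated.

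The neuregulins signal through ERBB3 and ERBB4. Nrg1 had intensities of 89.3 and 811, 6.06-fold higher in Sox9+EpCAM- cells, a difference of 2.60 with a scanner error of 0.23. Nrg4, a ligand of ERBB4, has 3 probes that did not move together. Its brightest had intensities of 2810 and 2460 (a difference of -0.77), the next 789 and 343 (-1.78), and the last 5.81, not well above background, and 181, at least 2.12 higher. Which of its transcripts each probe reads was not examined, and Nrg4 was not counted as changed by its brightest probe.

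Of their receptors, Erbb2, which has no known ligand and pairs with the others, had mean intensities over 9 spots of 57.2 and 349, 4.09-fold higher. Its difference of 2.03 with a scanner error of 0.26 lies just past the 4-fold line, and it was below that line with normexp background correction (1.19), with quantile normalization, in the deposited table of ratios and when scaled to the mean of all Gapdh probes. Egfr, the receptor of Areg, Hbegf, Btc, Ereg and Tgfa, had intensities of 25700 and 21000 at its brightest probe, a difference of -0.87. Its other probes gave -1.58 (intensities of 9830 and 4940) and -1.81 (mean intensities over 10 spots of 506 and 217). All 3 probes of Egfr were lower in Sox9+EpCAM- cells by less than 4-fold, while 3 of its ligands were higher by more. Erbb3, which binds neuregulins and has little kinase activity of its own, had intensities of 1270 and 3360, a difference of 0.82. Erbb4 was not well above background on either array at either of its 2 probes.

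**Figure D2:**
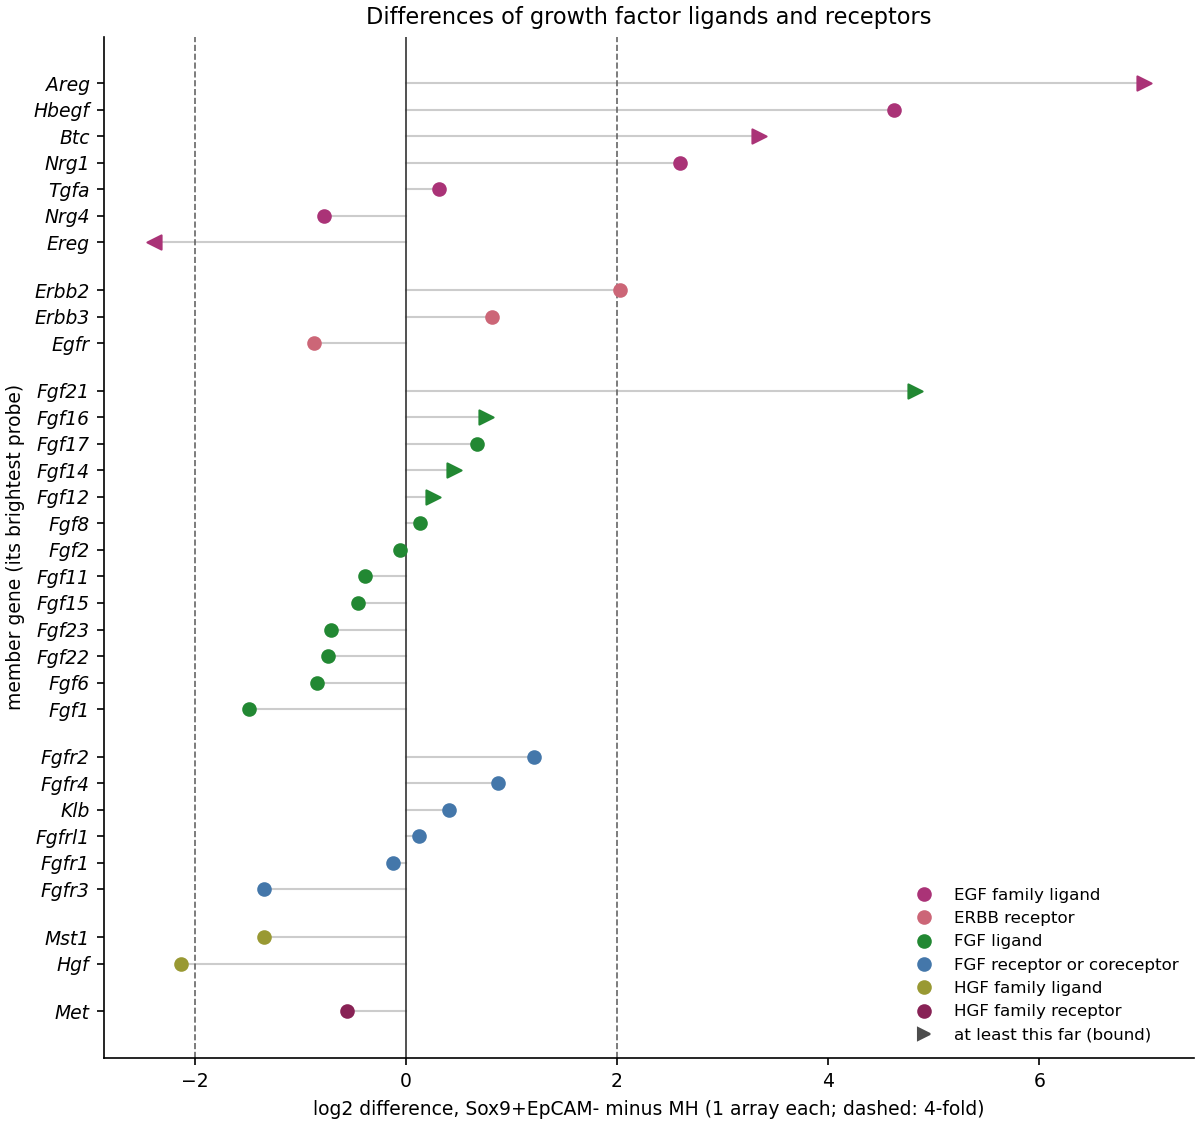
Log2 difference (Sox9+EpCAM- minus MH, 1 array each) of the members for which one could be given, by role, with triangles for bounds and dashed lines at 4-fold. Areg, Hbegf, Btc, Nrg1, Erbb2 and Fgf21 lie right of the upper line, Ereg and Hgf left of the lower one, and no FGF receptor lies outside the lines. Each gene is drawn by its brightest probe, and the other Fgfr1 probes, at 3.86 and 3.39, would lie right of the upper line.

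Among the FGF ligands, Fgf21, a hormone made by hepatocytes, was higher in Sox9+EpCAM- cells. Its probe (chr7:52869305-52869364, mm9) had an intensity of 7.71, not well above background, in MHs and 1180 in Sox9+EpCAM- cells, a difference of at least 4.82, or at least 28.3-fold. It was the only 1 of the 15 FGF ligands above background to pass 4-fold, a share of 6.67% that is near the 5.59% of all genes. Fgf15, the gut hormone that lowers bile acid synthesis in the liver, was near background, with intensities of 37.5 and 41.0 and a difference of -0.45. Fgf23, a bone hormone, is described with the shared probe sequences.

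Fgf1, which binds all FGF receptors, had intensities of 7120 and 3820 at its brightest probe, a difference of -1.48, and 251 and 284 (-0.40) at the other. Fgf8 had intensities of 4020 and 6600, a difference of 0.13 that ranged from -0.04 to 0.40 under other scalings, so its direction is not settled. A second Fgf8 probe gave 78.9 and 71.8 (-0.72), and the last was not well above background on either array, at 11.7 and 20.6. No probe of either gene passed 4-fold.

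Fgf2 (basic FGF) had mean intensities over 8 spots of 32.4 and 46.3, and its difference of -0.06 turned sign between scalings (-0.28 to 0.21). Its other probe was not well above background on either array, at 9.11 and 12. Fgf17, of the same subfamily as Fgf8, had intensities of 74.8 and 179, a difference of 0.68. Both stayed well inside the 4-fold lines. Fgf6 had intensities of 208 and 174 at its brightest probe (-0.84), while its other probe was at 14.1, not well above background, and 62.0, at least 0.57 higher. Fgf22 did likewise, with 225 and 202 (-0.74) at one probe and 7.48, not well above background, and 66.9, at least 0.68 higher, at the other. For these 2 genes the probes point in opposite directions.

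The FGF homologous factors Fgf11 to Fgf14 act inside the cell and are not secreted. Fgf11 was measured on both arrays, with intensities of 1510 and 1730 and a difference of -0.39. Fgf12 had an intensity of 7.38, not well above background, in MHs and 49.8 in Sox9+EpCAM- cells, at least 0.26 higher, and its other probe was above background on neither (13.1 and 18). Fgf14 had 25.7, not well above background, and 57.1 at its brightest probe, at least 0.46 higher. A second Fgf14 probe had 6.28, not well above background, and 110, at least 1.40 higher, and the last was above background on neither (21.5 and 14.0). Fgf12 and Fgf14 were thus above background in Sox9+EpCAM- cells only.

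Fgf16 also was above background in Sox9+EpCAM- cells only, with intensities of 6.90 and 70.5, at least 0.76 higher. Fgf4 (19.5 and 33.0) and Fgf9 (6.10 and 24.0) were above it on that array only as well, but too dim for a fold. With a floor of 27.8 in MHs, a gene below background there needed an intensity of 167 in Sox9+EpCAM- cells to reach a 4-fold bound, so larger differences of these dim genes were not detectable. Fgf5, Fgf7, Fgf10, Fgf13, Fgf18 and Fgf20 were not well above background on either array.

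The FGF receptors were measured on both arrays. Fgfr4, the main FGF receptor of hepatocytes, had intensities of 1960 and 5390 (a difference of 0.88) at its brightest probe and 1920 and 4000 (0.48) at the other. Fgfr2 had intensities of 1080 and 3760 (1.22), and its other probe, with mean intensities over 10 spots of 517 and 1757, gave 1.18. Both probes of each of these receptors were higher in Sox9+EpCAM- cells by less than 4-fold. Fgfr3 had intensities of 2600 and 1540 (-1.34), 371 and 270 (-1.04) and 406 and 688 (0.18), so that 2 of its 3 probes were lower. Klb, the coreceptor of FGF15 and FGF21, had intensities of 600 and 1190, a difference of 0.40. Fgfrl1, a receptor without a kinase domain, had intensities of 171 and 279, and its difference of 0.12 turned sign between scalings (-0.05 to 0.39).

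Fgfr1, the receptor through which FGF21 acts on fat, gave readings that depend on the probe. Its brightest probe (chr8:26685820-26685879, mm9) had intensities of 18500 and 25500, a difference of -0.12 that ranged from -0.30 to 0.34 under other scalings. The other probes had intensities of 254 and 5520, a difference of 3.86 or 14.5-fold, and of 103 and 1620, a difference of 3.39 or 10.5-fold. By the brightest probe Fgfr1 is not counted, and the others put it past the 4-fold line in Sox9+EpCAM- cells.

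Of the member probes, 2 share a run of at least 20 bases with a probe of another gene, as 7.19% of 39429 probes on the array do, and they are the brightest probes of Fgfr1 and Fgf23. The stretches are shown because they bear on which reading of these genes is used. The first is the start, 30 bases long, of a run of 32 bases that the Fgfr1 probe shares with the probe of 0610007P08Rik. The other is the CA repeat that the Fgf23 probe shares with 21 probes of 21 other genes.
Fgfr1: tttttgtttgtttgtttggttggttggttg
Fgf23: cacacacacacacacacaca
The Fgfr1 probe shares 20 bases with probes of 7 other genes in all. The probe of 0610007P08Rik had intensities of 17200 and 23100, a difference of -0.16 beside -0.12 for the Fgfr1 probe. All 7 other probes were above background on both arrays, with intensities in MHs from 119 to 17200 and differences from -0.46 to 0.41. The bright Fgf23 probe had intensities of 80100 and 73500, a difference of -0.71, while its other probe was above background on neither array (8.52 and 20.2). All 21 probes with the repeat were well above background on both arrays, with differences from -1.25 to -0.40 and a median of -0.64. Whether these probes bind the transcripts of other genes was not tested. Without the probes that share 20 bases, 7 members were at least 4-fold higher, Fgfr1 being the one added.

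**Figure D3:**
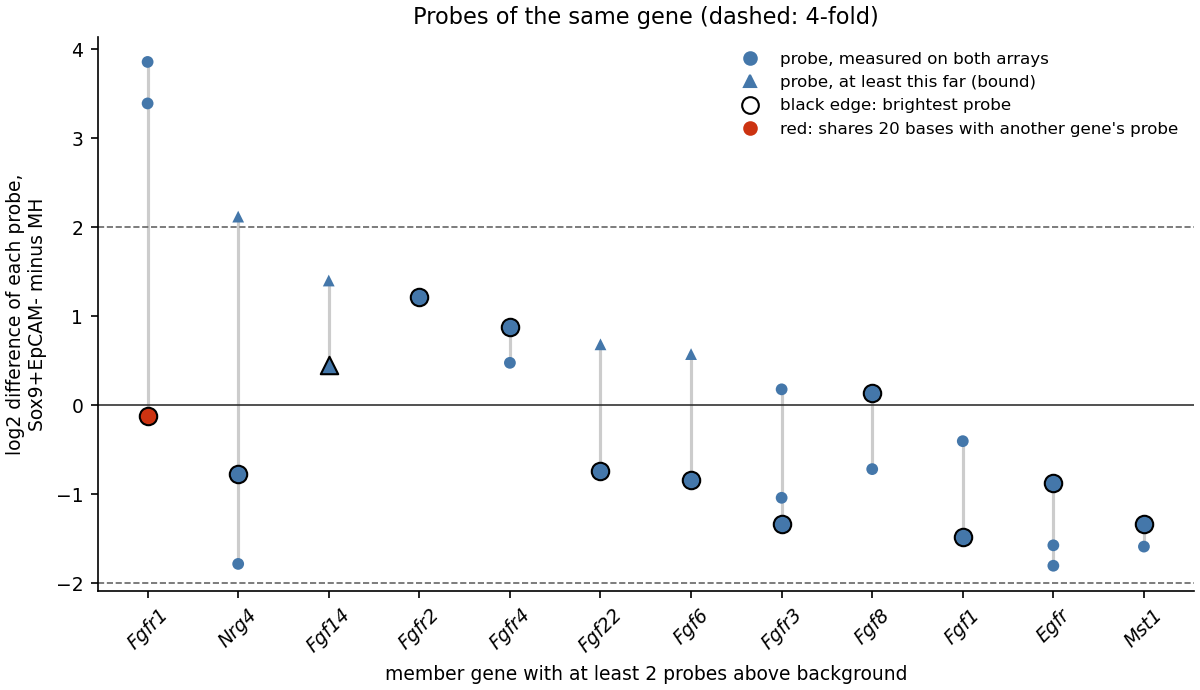
Log2 difference (Sox9+EpCAM- minus MH) of every probe above background for the 12 members with at least 2 such probes, with triangles for bounds, a black edge for the brightest probe and red for a probe sharing 20 bases with another gene's probe. The probes of Fgfr1 and Nrg4 lie on both sides of the upper 4-fold line, and those of Fgfr2, Mst1 and Fgfr4 span 0.03, 0.25 and 0.40.

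Hgf, the ligand of MET, was lower in Sox9+EpCAM- cells. Its probe (chr5:16124829-16124888, mm9) had intensities of 83.8 and 28.7, a difference of -2.13 with a scanner error of 0.32, or 4.37-fold lower. It is close to the 4-fold line and was inside it when scaled to the brightest Gapdh probe (-1.86) and with normexp (-1.23). In bulk RNA, fewer cells of a type and less RNA per cell cannot be told apart. Markers of the other cells of the liver differed as well. Of 6 endothelial markers above background, 4 were at least 4-fold lower and 0 higher, with a summed level, relative to the 75th percentile, of 9.0 in MHs and 2.14 in Sox9+EpCAM- cells. Of 7 leukocyte markers above background, 4 (Clec4f, Emr1, Lyz2 and Cd74) were at least 4-fold lower and 0 higher, with summed levels of 41.1 and 14.6. The others did not pass 4-fold, with Ptprc at -0.24, Csf1r at -0.42 and Tyrobp at -1.80. Csf1r, at a log2 level of 3.63 in Sox9+EpCAM- cells, makes up most of the second sum. Of 8 stellate cell and fibroblast markers above background, the stellate cell gene Lrat was at least 4-fold lower, with intensities of 94.6 and 3.74. In that list 3 collagens, Col1a1, Col1a2 and Col3a1, were higher, Pdgfrb was above background on neither array, and the summed levels were 12.8 and 45.1. Of 6 cholangiocyte markers, 2 (Epcam and Spp1) were at least 4-fold higher. The others did not pass 4-fold, with Sox9 at least 0.53, Krt19 at 0.42 and Krt7 at -0.23, while Cftr was at intensities of 69.6 and 52.1, lower after scaling. The summed levels of this list were 1.43 and 45.7, and Spp1, at a log2 level of 5.40 in Sox9+EpCAM- cells, makes up most of the second. Of 3 mesothelial markers, Wt1 was above background, in MHs only, with intensities of 511 and 4.63. The part of any of these cells in the Hgf value, or in those of the other members, was not tested.

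Mst1, which hepatocytes secrete as macrophage-stimulating protein, had intensities of 2550 and 1510 (-1.34) at one probe and 2000 and 995 (-1.59) at the other. Both HGF family ligands were thus lower in Sox9+EpCAM- cells, Mst1 by less than 4-fold at both its probes. Met, the receptor of HGF, had mean intensities over 10 spots of 688 and 701, a difference of -0.56. Mst1r (RON), the receptor of MST1, was not well above background on either array, with means over 10 spots of 10.5 and 18.3.

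The other genes of these pathways were read in 11 lists. Of 118 names read, 116 are on the array and 108 were above background, of which 13 (12%) were higher by 4-fold or more and 5 (4.63%) lower by as much in Sox9+EpCAM- cells. Over all genes above background these shares were 5.59% and 5.57%, so the lower share is near that of all genes. The median over the 93 measured on both arrays was -0.06, beside -0.19 over all genes. These genes past 4-fold lay in 7 of the lists. None of the 12 receptor adaptors, none of the 13 genes of the RAS-ERK cascade and none of the 3 EGF family ligands outside the rule (Epgn, Nrg2, Nrg3) that were above background passed 4-fold. With normexp background correction, in which low signals are raised, 9 pathway genes were higher and 2 lower, beside 2.61% and 2.82% of all genes. Which pathway genes were lost was not recorded, so the calls of dim genes in the lists are less firm.

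Of 11 transcription factors that respond to ERK, 4 (36.4%) were higher and 0 lower, beside 5.59% and 5.57% of all genes, which are the shares to set beside each of the list counts that follow. Fosl1, an AP-1 subunit, had an intensity of 6.20, not well above background, in MHs and 6120 in Sox9+EpCAM- cells, a difference of at least 7.20. Myc had intensities of 350 and 32900, a difference of 5.97. Ets2 had 790 and 14000 (3.56), and Srf, the serum response factor, 1380 and 12400 (2.58). The remaining 7, ETS factors of the Etv, Ets and Elk groups, did not pass 4-fold, and among them the Elk1 and Ets1 probes have 20 bases in common with probes of other genes.

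Of 16 regulators of the receptors and of ERK above background, most of them feedback inhibitors, 3 were higher and 1 lower. Dusp6, the phosphatase of ERK, had intensities of 250 and 2760, a difference of 2.88. Spry1 (Sprouty), an inhibitor of receptor signalling, had 18.4, not well above background, and 311, at least 2.90 higher. Flrt3, a membrane protein that binds FGF receptors and is known to promote their signalling, had 7.11, not well above background, and 194, at least 2.22 higher. Cbl, the ubiquitin ligase that removes EGFR and MET from the surface, had 98.5 and 25.3, a difference of -2.54. The list therefore held genes past the line in both directions.

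The proteases that activate HGF held 1 higher gene of 9 above background. Plat, tissue plasminogen activator, had an intensity of 7.49, not well above background, in MHs and 6100 in Sox9+EpCAM- cells, a difference of at least 7.19. Spint1 and Spint2, membrane inhibitors of these proteases, had differences of 0.17 and -0.13, and Plaur, the urokinase receptor, was above background in Sox9+EpCAM- cells only and too dim for a fold. The 7 proteases of the list measured on both arrays had differences from -1.74 to -0.09, with a median of -0.86, beside -0.19 over all genes.

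Among the shedding factors Rhbdf1 (iRhom1), which works with ADAM17 in the release of EGF family ligands, had intensities of 126 and 1150, a difference of 2.61, and was the only 1 of 6 above background past 4-fold. Of 16 heparan sulphate genes above background, Sulf1, a sulphatase that edits the chains on which FGF and HGF bind, had 15.5, not well above background, and 176, at least 2.08 higher. In the PI3K-AKT branch, 1 of 9 was higher and 1 lower. Pik3r2 had 7.29, not well above background, and 198, at least 2.25 higher, and Pik3cb had 126 and 42.6, a difference of -2.15 that was inside 4-fold when scaled to the brightest Gapdh probe.

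**Figure D4:**
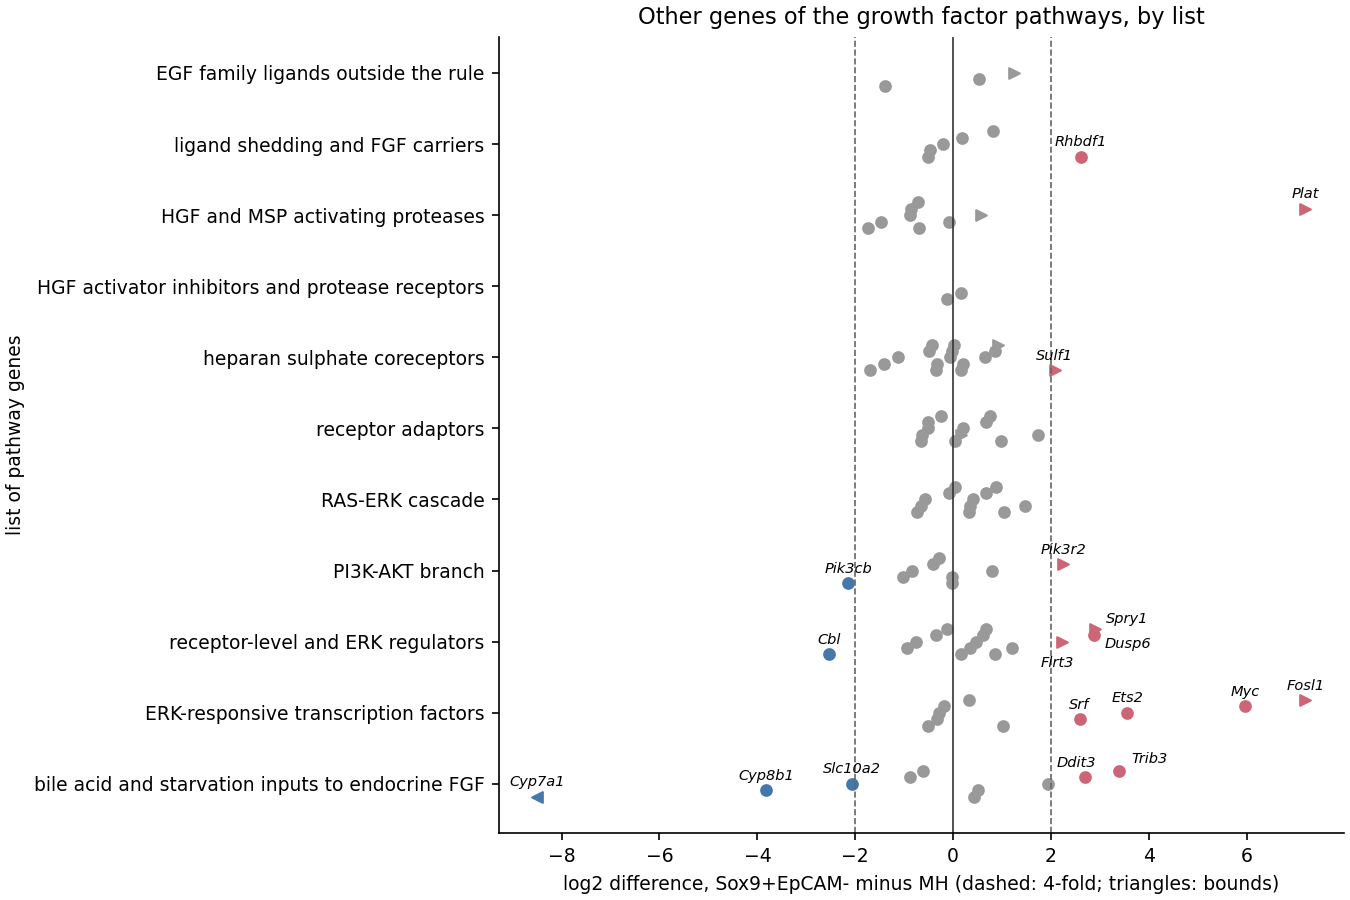
Log2 difference (Sox9+EpCAM- minus MH, 1 array each) of the pathway genes above background for which one could be given, by list, with triangles for bounds, dashed lines at 4-fold and the genes past them named. The ERK-responsive factors have 4 genes past the upper line, and the bile acid and starvation list has genes past both.

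The genes around endocrine FGF differed in both directions, 2 of 10 higher and 3 lower. Cyp7a1, the rate-limiting enzyme of bile acid synthesis, which FGF15 is known to lower, had an intensity of 4910 in MHs and 20.4, not well above background, in Sox9+EpCAM- cells, at least 361-fold lower. Cyp8b1, which sets the ratio of bile acids, had intensities of 4040 and 428, a difference of -3.82. Slc10a2, a bile acid transporter, had 5070 and 1820, a difference of -2.06 that was also inside 4-fold when scaled to the brightest Gapdh probe. On the stress side, Trib3 had intensities of 181 and 2830 (3.38), and Ddit3, which encodes CHOP, 3130 and 30300 (2.69). Atf4, the factor after which the element shown in the Fgf21 promoter is named, had intensities of 538 and 3100. Its difference of 1.94 did not pass 4-fold, though it did when scaled to the brightest Gapdh probe.

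**Figure D5:**
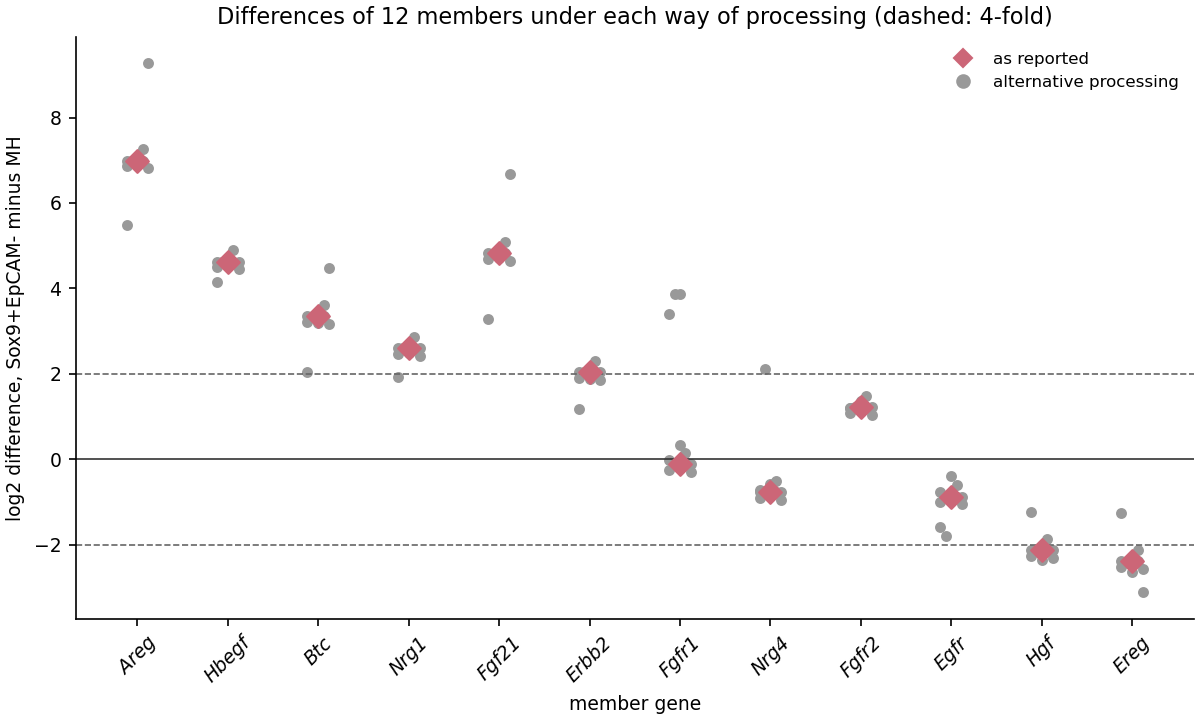
Log2 difference (Sox9+EpCAM- minus MH) of 12 members as reported (diamonds) and under each other way of processing (grey points), with dashed lines at 4-fold. Areg stays at or above 5.48, Hbegf 4.16 and Fgf21 3.28 in every one tried, though the probe rules cannot change these. Erbb2, Nrg1, Hgf and Ereg cross a line, and Fgfr1 and Nrg4 change with the probe used.

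Under the other ways of processing, Areg ranged from 5.48 to 9.27, Hbegf from 4.16 to 4.89, Fgf21 from 3.28 to 6.67 and Btc from 2.03 to 4.47. These 4 stayed past 4-fold in all 11 tried for each, but not all of the 11 could have changed them. Each of these genes has 1 probe, so the other probe rules return the same value, as did keeping outlier spots. Leaving out the bound can only keep or widen a difference. Nrg1 ranged from 1.92 to 2.87 and Erbb2 from 1.19 to 2.30. Hgf ranged from -2.36 to -1.23 and Ereg from -3.12 to -1.25. These 4 members fell inside the 4-fold line under at least 1 of them, normexp background correction, in which low signals are raised.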

How the data were processed

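The spot intensities that the authors deposited were written by Feature Extraction 10.7.3.1, per the file headers, with the background subtracted and spatial trends removed but no normalization between arrays. The table of ratio values that the authors also deposited is this intensity divided by the median of its array. Labelling was done by a service provider with an undisclosed protocol. Here the 75th percentile over the 43020 spots other than controls was set equal between arrays, on the log2 scale. Spots flagged as uneven or outlying on either array were dropped, and repeat spots were averaged, leaving 39390 probes. A probe was above background where no more of its spots failed than passed the background flag. The brightest probe, by its mean of both arrays, stands for a gene. Size was judged at 4-fold. Every member is named, and of the pathway lists the genes past 4-fold, at most 4 each way per list; Atf4, Epgn, Nrg2, Nrg3, Spint1, Spint2, Plaur, Elk1, Ets1, 0610007P08Rik and single markers were named after their values were seen. Probe coordinates are on mm9, and promoters are from the RefSeq table of GRCm38.p6. The members and lists were chosen with earlier results of these data known. Of the genes first listed, 1 pathway gene and 1 cell type marker are not reported here and were left out of the counts of their lists. Alternatives were background correction by normexp with an offset of 50 (R 4.3.3, limma 3.58.1), a scaling by the median of the probes measured on both arrays, by quantiles or by the brightest Gapdh probe, the deposited ratios, other probe rules, keeping outlier spots, no bound, and thresholds of 2-fold and 10-fold. Scaling to the mean of all Gapdh probes was chosen after seeing the data. Counts of members and pathway genes that changed by over 1.5-fold between settings are named. For single members such changes are counted, and not each is named. Python 3.11.15, pandas 2.3.3 and numpy 2.4.6 were used, and the procedure was tested on simulated data.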

Additional observations from a re-analysis of the deposited data

How the results depend on the processing

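No paired analysis was possible because there was 1 array for MH and 1 for Sox9+EpCAM-, which left neither a replicate to drop nor a slide to block on. Of 350 values of single members under alternatives, 326 changed by no more than 1.5-fold and 24 moved further. For a gene with 1 probe the probe rules return the same value by construction, so the 326 include values that could not change. A reversal was a change of sign in a member past 4-fold, and 0 occurred. Calls that fell inside the line were not counted as reversals. Members at least 4-fold higher numbered 3 in place of 6 where only genes above background on both arrays were kept. Members at least 4-fold lower numbered 0 in place of 2 with normexp background correction, 1 scaled to Gapdh, 1 among genes above background on both arrays, 5 at 2-fold and 0 at 10-fold. Pathway genes higher numbered 7 in place of 13 among genes above background on both arrays, 20 at 2-fold and 5 at 10-fold, and pathway genes lower numbered 2 in place of 5 with normexp, 3 scaled to Gapdh, 12 at 2-fold and 2 at 10-fold. The stricter thresholds and the smaller gene set leave fewer genes by construction, normexp raises low signals, and for Gapdh the shift of the median is the cause: scaling to its brightest probe moved the median of all genes by 0.27, to the mean of all its probes by -0.13, and the deposited ratios by -0.18. Over all genes, normexp gave 612 higher and 660 lower genes in place of 1309 and 1304, and scaling to Gapdh 1650 and 1006, so that 62.1% of calls were higher in place of 50.1%. The share fell in other settings. The deposited ratios gave 1130 higher and 1563 lower genes (42.0% of calls higher), and scaling to the mean of all Gapdh probes 1170 and 1489 (44.0%). The median of the members was 0.15 scaled to Gapdh and 0.03 without probes sharing 20 bases, in place of -0.12. With plain differences and no bound, Fgf12 and Fgf16 were also past 4-fold, and with the probe of largest difference Fgfr1 and Nrg4 were. Signals below 27.8 (MH) and 18.4 (Sox9+EpCAM-) limit what could be measured for the dim FGF ligands.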
